A study of Mus musculus with 9 samples.

Results

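A set of 9 genes of fibrin formation and breakdown was followed in mouse lung after irradiation: the fibrinogen chain genes Fga, Fgb and Fgg, the tissue factor gene F3, the factor XIII A subunit gene F13a1, the thrombomodulin gene Thbd, the plasminogen activator genes Plat and Plau, and the urokinase receptor gene Plaur. They were 9 of 19694 genes measured, and they were chosen by name with earlier results of the same contrast known. Their values are therefore given as a description, and no test of the contrast is drawn on for them. Each gene was read from its brightest probe, the one with the highest mean over the 9 arrays, and its level is a log2 intensity after quantile normalization, which gives all arrays one common distribution. Probes differ in their brightness per transcript, so levels were compared between arrays for one probe and never between genes. All 9 genes passed the filter on dim probes (signal over 1.4 times the local background on 4 or more arrays), and 8 passed it when all 9 arrays were required.

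The RNA came from the lungs of 10-week-old male C57BL/6 mice, and 4 arrays are labeled control and 5 irradiated. The irradiated mice received a single dose to the left lung under anesthesia with zoletil and rompun. The study used a focal high dose and a diffuse lower dose and several times after irradiation, but the labels tie no array to a dose, lung region or time, so the spread among the irradiated arrays includes any such difference. RNA of triplicate experiments was pooled before labeling, and nothing states that the arrays of a group are separate animals, so every error given here and every p-value measures only the spread between these arrays.

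Fibrinogen is a plasma protein built from Aα, Bβ and γ chains that thrombin turns into fibrin. Hepatocytes are its main source, and interleukin 6 raises its synthesis there through STAT3 as part of the acute phase response; synthesis by lung epithelial cells has also been described under inflammatory stimulation. Tissue factor starts the cascade that yields thrombin, factor XIII crosslinks the fibrin strands, thrombomodulin on the endothelium redirects thrombin toward anticoagulation, and the plasminogen activators with the urokinase receptor drive the breakdown of the clot.

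The chain genes lie side by side in the mouse genome. In the RefSeq gene table of GRCm38.p6, the order on chromosome 3 was Gm30097, Fgg, Fga, Gm40075, Fgb and Plrg1. The RefSeq promoter table of the same build held 6 of the 9 genes (F3, F13a1, Plaur and the chain genes). The 250 bases before the annotated start of each chain gene are shown 5′ to 3′ on the strand of the gene, because Fgg and Fga were both highest on irradiated arrays 3 to 5, as given below. Capitals mark CTGGGA, known as the core of the interleukin 6 response element of fibrinogen genes, TTGCAA, a core bound by C/EBP factors, and ATTAAC, a half-site of the hepatocyte factor HNF1. Both strands were searched, all matches were on the strand of the gene, no matches overlapped, and the motifs were chosen with the sequences in view.
Fgg, chr3:83007474-83007723, plus strand: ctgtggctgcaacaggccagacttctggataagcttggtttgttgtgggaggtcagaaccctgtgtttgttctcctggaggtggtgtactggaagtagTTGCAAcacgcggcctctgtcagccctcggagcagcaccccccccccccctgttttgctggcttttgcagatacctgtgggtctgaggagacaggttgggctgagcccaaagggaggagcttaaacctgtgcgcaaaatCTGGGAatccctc
Fga, chr3:83025903-83026152, plus strand: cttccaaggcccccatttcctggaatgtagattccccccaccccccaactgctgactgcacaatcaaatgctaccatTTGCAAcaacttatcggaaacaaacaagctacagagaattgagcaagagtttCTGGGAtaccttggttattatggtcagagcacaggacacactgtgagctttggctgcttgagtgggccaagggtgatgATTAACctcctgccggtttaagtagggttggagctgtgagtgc
Fgb, chr3:83049864-83050113, minus strand: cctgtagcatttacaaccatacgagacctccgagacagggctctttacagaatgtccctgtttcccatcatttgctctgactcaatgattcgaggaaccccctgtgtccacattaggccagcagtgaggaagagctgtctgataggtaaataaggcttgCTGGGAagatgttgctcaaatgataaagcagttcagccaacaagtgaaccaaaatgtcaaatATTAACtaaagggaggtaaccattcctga
CTGGGA stood 13 to 8 bases before the start of Fgg, 121 to 116 bases before that of Fga and 91 to 86 bases before that of Fgb. It was present in 27% of the 32851 promoters of the same length, and among the other 3 genes with a promoter it was present in that of F13a1. TTGCAA was present in Fgg and Fga and in 5.34% of all promoters, and ATTAAC in Fga and Fgb and in 6.43%. Fga alone of the chain genes held all 3 motifs, as did 37 promoters in all (0.113%). A match is a description of the letters and not a binding site.

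Some arrays stood apart from the rest. Of the gene spots, 72.8% to 89.1% per array were well above background, a mark the scanner software gives each spot, and no spot was saturated. The lung markers Sftpc, Scgb1a1, Ager and Cldn5 gave signal well above background on every array. The mean level of 8 cardiac muscle genes, relative to the control mean, was −5.97 on irradiated array 1 and between −0.51 and 0.56 on the other arrays, and that of 8 skeletal muscle genes was 4.61 on control array 3 and between −2.11 and −0.99 on the other arrays. The position and tilt of the spot grid put control 1 with irradiated 2, control 2 with irradiated 3, control 3 with irradiated 4 and control 4 with irradiated 5 as pairs of like scans, while irradiated 1 had no partner. Values without these arrays or within the pairs are given for Fgg, Fga, F13a1, Thbd, Plau and Plaur and for some of the listed genes.

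Fgg, the γ chain gene, showed the widest range of the 9 genes over the arrays. Its log2 intensity was 8.97, 9.18, 8.06 and 7.80 on control arrays 1 to 4 and 6.35, 10.99, 13.11, 12.89 and 12.996 on irradiated arrays 1 to 5, well above background on all 9. Irradiated arrays 2 to 5 lay above every control array, 5.62-fold to 24.5-fold above the control mean, while irradiated array 1 lay below every control array, 4.44-fold below the control mean. The groups thus overlapped through 1 array. The mean was 8.50 ± 0.67 (SD, n = 4) in the control and 11.27 ± 2.88 (SD, n = 5) in the irradiated arrays, a log2 difference of 2.77 (standard error 1.25). Without irradiated array 1 the difference was 4.00 (standard error 0.50), and without control array 3 as well it was 3.85 (standard error 0.55). Within the 4 scan pairs it was 2.02, 3.94, 4.83 and 5.19, higher on the irradiated array in every pair.

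Fga, the Aα chain gene, was read by 2 probes that gave unequal differences. The brighter probe, A_55_P2123381, was at 5.46, 5.55, 6.00 and 4.82 on the control arrays and at 4.06, 5.64, 7.08, 7.08 and 6.49 on the irradiated arrays. Irradiated arrays 3 to 5 lay above every control array and array 2 lay within the control range. Array 1 was not well above background, so its order against the control arrays is not read. The difference was 0.61 (standard error 0.59), and 1.11 (standard error 0.38) without irradiated array 1, with 0.18, 1.53, 1.07 and 1.66 within the scan pairs. Control 1 and irradiated 1 were not well above background.

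The dimmer probe of Fga, A_51_P193813, was at 2.02, 3.65, 2.91 and 2.82 on the control arrays and at 4.98, 5.82, 7.55, 6.57 and 6.89 on the irradiated arrays. Irradiated arrays 2 to 5 lay above all 4 control arrays. The difference over all arrays was 3.51 (standard error 0.51), with 3.67 to 4.07 within the 4 scan pairs. The probe was well above background on only 1 control array (control 3) and on 4 irradiated arrays (2 to 5). Most of its control values thus have no reliable order, and the difference has no exact size. With each value that was not well above background raised to the lowest well-detected level of its array, the difference was 2.33 (standard error 0.53), and with normexp background correction, which adds an offset of 50, it was 1.08 (standard error 0.24). For the brighter probe these settings gave 0.83 and 0.32. On both probes, as on Fgg, irradiated arrays 3 to 5 lay above irradiated array 2; irradiated array 1 was not well above background on either Fga probe, so its order against array 2 is not read.

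Fgb, the Bβ chain gene, stayed near the background. Its level was 3.16, 2.70, 3.17 and 4.44 on the control arrays and 3.90, 4.66, 2.72, 3.00 and 3.14 on the irradiated arrays, and it was well above background on control 3 and irradiated 4 alone. The groups overlapped throughout, with a difference of 0.12 (standard error 0.46) that was below 0 under 5 of 21 alternative settings. A difference in Fgb was not detectable with this probe.

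**Figure D1:**
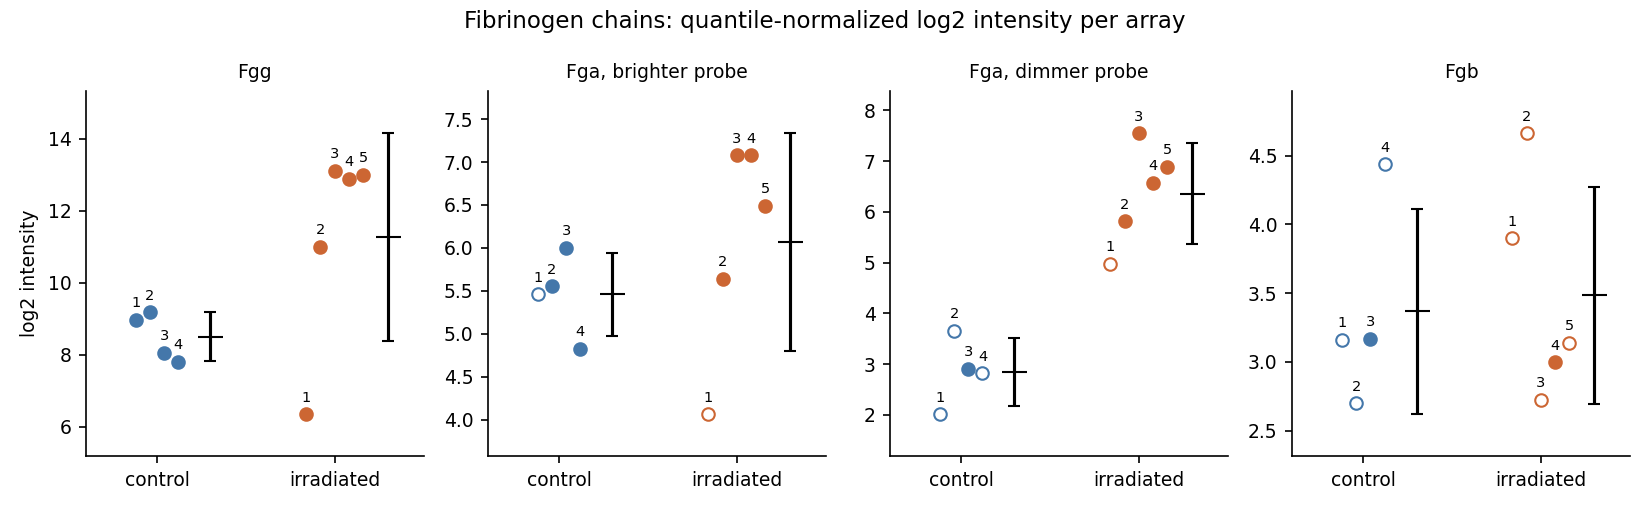
Quantile-normalized log2 intensity (y axis, a separate scale per panel) of the probes of Fgg, Fga and Fgb on the 4 control and 5 irradiated arrays (x axis); numbers give the array, open points are not well above background, and black bars are the mean ± SD. For Fgg, irradiated arrays 2 to 5 lie between 10.99 and 13.11, above all control arrays, and irradiated array 1 lies at 6.35, below them.

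Genes of interleukin 6 signaling and the acute phase response were set beside the fibrinogen chains, as a list of 22 genes. The list also held the transcription factor gene Hnf4a. Il6 itself was at 7.24, 6.66, 6.50 and 7.62 on the control arrays and at 7.01, 9.48, 10.44, 10.43 and 10.30 on the irradiated arrays. As with Fgg, irradiated arrays 2 to 5 lay above every control array and irradiated array 1 did not. The part of interleukin 6 in the level of Fgg was not tested. The log2 difference of Il6 was 2.53 (standard error 0.66, limma adjusted p = 0.178). Saa3, an acute phase serum amyloid made outside the liver, was 3.22 higher (standard error 0.80, limma adjusted p = 0.157), and Socs3, a feedback inhibitor of STAT3 signaling, was 1.29 higher (standard error 0.45, limma adjusted p = 0.327), neither past the threshold of an adjusted p under 0.05. These calls depended on the fit. Irradiated array 1 held the lowest irradiated level of Il6, Saa3 and Socs3, so leaving it out raised each difference. Without irradiated array 1, Il6 was higher by 3.16 (limma adjusted p = 0.00714) and Saa3 by 3.84 (limma adjusted p = 0.0235). Socs3 was then higher by 1.66 (limma adjusted p = 0.0364), and all passed the threshold. With the scan pairs as a fixed block on the same 8 arrays, Il6 (limma adjusted p = 0.0276) and Saa3 (limma adjusted p = 0.0354) passed. Socs3 did not (limma adjusted p = 0.0674). With the pairs as a random block, which kept irradiated array 1, Il6 (limma adjusted p = 0.00732) and Saa3 (limma adjusted p = 0.00677) passed. Socs3 also passed there (limma adjusted p = 0.0266), beside 9.45% of all genes. Within the scan pairs the difference was 2.24 to 3.94 for Il6, 2.03 to 4.94 for Saa3 and 0.55 to 2.61 for Socs3. Stat3 differed by 0.20 (limma adjusted p = 0.737), and Hp, the haptoglobin gene, by −0.16 (limma adjusted p = 0.848).

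Of the 22 genes, 1 passed the threshold, beside 0.416% of all genes: Hnf4a, a transcription factor of hepatocytes and gut epithelium, was higher by 3.88 (standard error 0.55, limma adjusted p = 0.0312) and lay above all control arrays on all 5 irradiated arrays. It was well above background on 3 of 4 control arrays, lost its call in 8 of the 9 fits with an array left out, and its adjusted p lay between 0.000748 and 0.171 over its alternatives. Over the list, 14 of 22 genes had an unadjusted p under 0.05, beside 12.3% of all genes, and the median difference was 0.73 against 0.01 over all genes. Without irradiated array 1, 9 of the 22 passed, all higher, beside 1.66% of all genes, and the median was 0.97. With the scan pairs as a fixed block 9 passed, beside 3.82% of all genes. As a random block 13 passed, beside 9.45%, again all higher. The mean level of the list relative to the control mean was 0.37 on irradiated array 1, between 1.39 and 1.61 on irradiated arrays 2 to 5, and between −0.22 and 0.28 on the control arrays.

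Hepatocyte markers were also set beside Fgg, and the part of hepatocytes in its level was not tested. The mean level of 16 of them relative to the control mean was 0.87 on irradiated array 2, between −0.17 and 0.06 on irradiated arrays 3 to 5, where Fgg was highest, −0.12 on irradiated array 1, and between −0.11 and 0.19 on the control arrays. Of the 16 markers, 7 were well above background on all 9 arrays, and the complement gene C9 was so on none. The difference was above 0 for 9 of the 16, with a median of 0.21 and a range of −1.85 to 1.31; none passed the limma threshold, and 6 had an unadjusted p under 0.05, beside 12.3% of all genes. Alb, the albumin gene, was well above background on 2 control and 5 irradiated arrays and differed by 1.30 (standard error 0.59, limma adjusted p = 0.511). In bulk tissue, fewer cells of a type and less RNA per cell cannot be told apart.

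**Figure D2:**
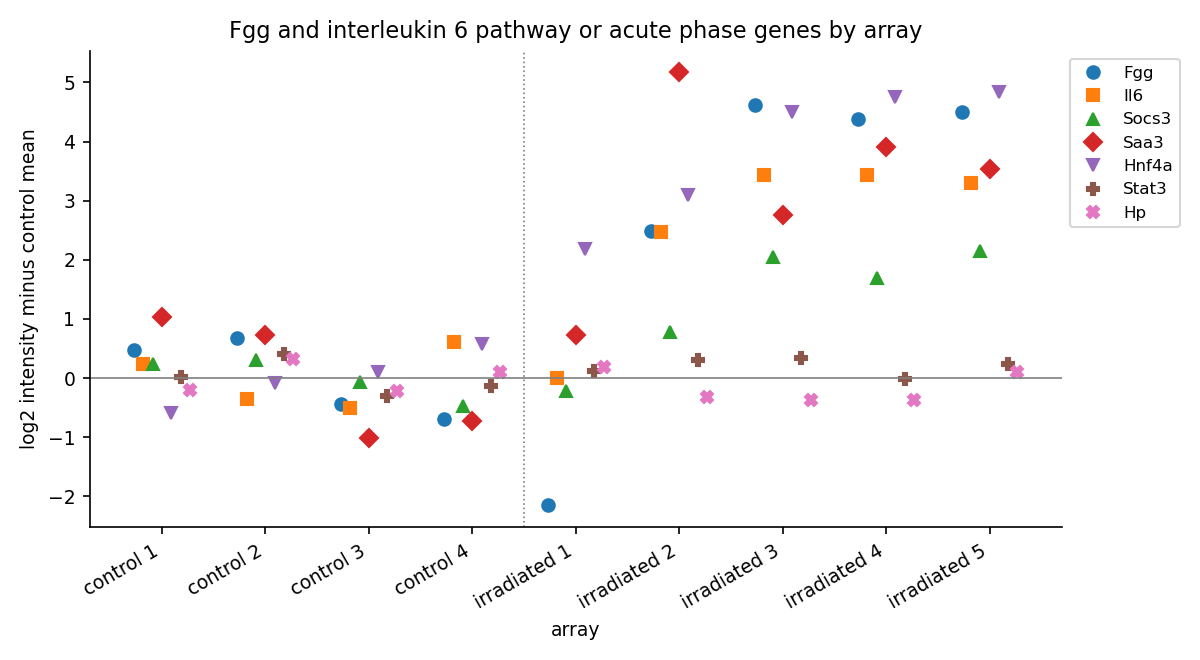
Log2 intensity minus the mean of the 4 control arrays (y axis) of Fgg and 6 genes of the interleukin 6 and acute phase list on each array (x axis), 1 point per gene and array. The 6 genes include the transcription factor gene Hnf4a. Fgg, Il6, Socs3 and Saa3 lie above 0 on irradiated arrays 2 to 5, while on irradiated array 1 Fgg lies 2.15 below the control mean; Stat3 and Hp stay near 0 on all arrays.

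F3, the gene of tissue factor, which starts coagulation, differed little between the groups. Its log2 intensity was 13.58, 13.22, 13.74 and 13.61 on the control arrays and 13.60, 13.38, 13.83, 13.63 and 13.33 on the irradiated arrays. The groups overlapped throughout, and the difference was 0.018 (standard error 0.13). The dimmer probe of F3 gave 0.23 (standard error 0.17).

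F13a1, which encodes the catalytic A subunit of factor XIII and is made by megakaryocytes and macrophages, was lower on every irradiated array. It was at 11.82, 11.69, 11.96 and 11.87 on the control arrays and at 11.24, 11.42, 11.42, 11.45 and 11.14 on the irradiated arrays. The groups did not overlap, with means of 11.84 ± 0.11 (SD, n = 4) and 11.34 ± 0.13 (SD, n = 5), a 1.41-fold lower level (log2 difference −0.50, standard error 0.10). The irradiated array was the lower one in all 4 scan pairs, by −0.27 to −0.73 in log2 difference, and without control 3 and irradiated 1 the difference was −0.44 (standard error 0.11). In the authors' normalized table the difference of F13a1 was smaller, at −0.27 (standard error 0.14). A dimmer probe of F13a1 gave −0.40 (standard error 0.21), with 4 of 5 irradiated arrays below all control arrays.

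Markers of both cell types that make factor XIII A lay mostly on opposite sides of 0. All 12 platelet and megakaryocyte markers were well above background on every array, and all 12 were lower in the irradiated arrays, with a median log2 difference of −0.54. Their mean level relative to the control mean ran from −0.11 to 0.26 among control and from −1.06 to −0.17 among irradiated arrays. The groups did not overlap for 5 of the 12 genes, all below, beside 1.76% of all genes. None of the 12 passed the limma threshold, and 8 had an unadjusted p under 0.05, beside 12.3% of all genes. Of 15 macrophage and monocyte markers, all well above background on every array, 13 were higher and none passed, 7 had an unadjusted p under 0.05, beside the same 12.3%, and the median difference was 0.55; their mean level was −0.27 to 0.40 on the control and 0.11 to 0.60 on the irradiated arrays. The part of either cell type in the level of F13a1 was not tested.

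Thbd, the gene of thrombomodulin, the endothelial cofactor of protein C activation, was slightly lower on 4 irradiated arrays. It was at 15.95, 15.80, 15.80 and 15.63 on the control arrays and at 15.995, 15.59, 15.64, 15.59 and 15.49 on the irradiated arrays. Irradiated array 1 was the highest of all 9 and the other 4 irradiated arrays were near or below the lowest control array. The difference was −0.13 (standard error 0.11), −0.22 (standard error 0.085) without irradiated array 1, and below 0 in all 4 scan pairs. The 12 endothelial markers, all well above background on every array, had a median difference of −0.08, and their mean level was highest on irradiated array 1, at 0.22, against −0.26 to 0.00 on the other irradiated arrays and −0.08 to 0.14 on the control arrays. The part of endothelial cells in the level of Thbd was not tested.

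Plat and Plau, the genes of the tissue-type and urokinase-type plasminogen activators, gave different pictures. Plat was at 11.18, 9.75, 10.84 and 11.14 on the control arrays and at 10.96, 11.37, 10.95, 10.77 and 11.31 on the irradiated arrays. Control array 2 was low and the other arrays overlapped, so the difference of 0.35 (standard error 0.28) became 0.021 without that array. Plau was at 7.20, 7.10, 6.30 and 6.44 on the control arrays and at 7.58, 8.09, 7.40, 7.75 and 7.66 on the irradiated arrays. All 5 irradiated arrays of Plau lay above all 4 control arrays, with means of 6.76 ± 0.45 (SD, n = 4) and 7.70 ± 0.25 (SD, n = 5), a 1.91-fold higher level (log2 difference 0.93, standard error 0.24). Within the scan pairs the difference of Plau was 0.89, 0.30, 1.44 and 1.22, and without control 3 and irradiated 1 it was 0.81 (standard error 0.26). In the authors' normalized table it was 0.53.

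Plaur, the gene of the receptor that holds urokinase at the cell surface, was higher on the irradiated arrays apart from an overlap of 1 array. It was at 13.05, 12.98, 13.23 and 12.86 on the control arrays and at 13.50, 13.59, 13.97, 13.52 and 13.17 on the irradiated arrays. Irradiated arrays 1 to 4 lay above every control array and irradiated 5 below control 3. The means were 13.03 ± 0.15 (SD, n = 4) and 13.55 ± 0.29 (SD, n = 5), a 1.44-fold higher level (log2 difference 0.52, standard error 0.15), and the irradiated array was the higher one in all 4 scan pairs, by 0.30 to 0.99. Unlike Fgg, Plau and Plaur were on irradiated array 1 near their level on the other irradiated arrays, 0.81 and 0.47 above the control mean.

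**Figure D3:**
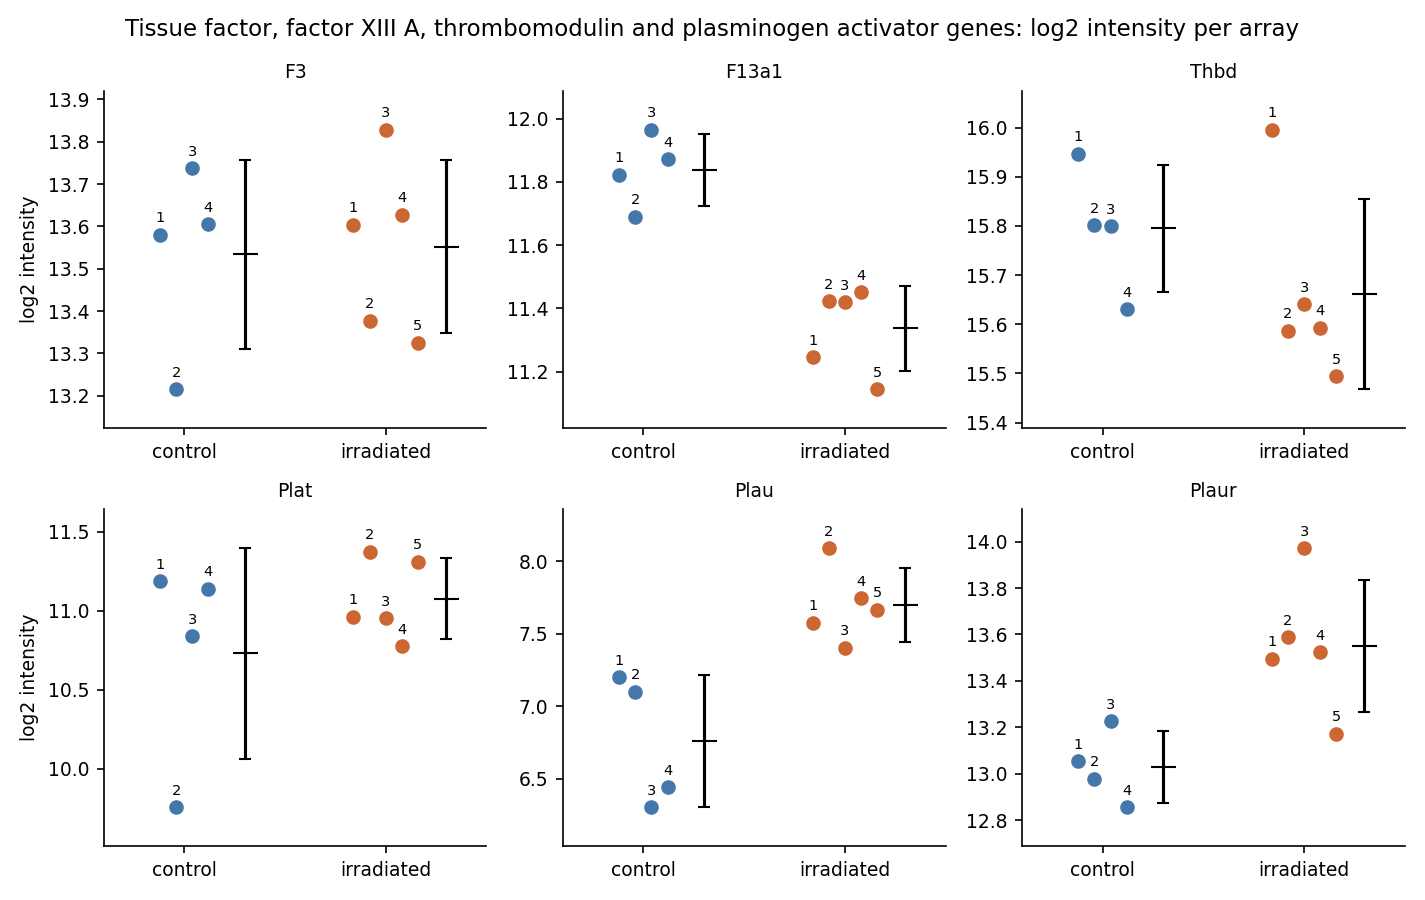
Quantile-normalized log2 intensity (y axis, a separate scale per panel) of F3, F13a1, Thbd, Plat, Plau and Plaur on the 4 control and 5 irradiated arrays (x axis); numbers give the array, all values are well above background, and black bars are the mean ± SD. The irradiated arrays of F13a1 lie between 11.14 and 11.45, below all control arrays, and those of Plau between 7.40 and 8.09, above all control arrays.

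Across the 9 genes, the groups did not overlap for 2, Plau above and F13a1 below, beside 5.15% of all genes measured, 3.4% above and 1.76% below. With irradiated array 1 set aside, the groups did not overlap for Fgg, Plau and F13a1, beside 9.21% of all genes, 5.47% above and 3.74% below. By the limma fit over all 39303 probes, 0 of the 9 genes passed an adjusted p under 0.05 by their brightest probe, beside 0.416% of all genes, and 3 had an unadjusted p under 0.05, beside 12.3%. The dimmer probe of Fga was among the 131 probes past the threshold, 0.333% of those tested, and kept that call in 1 of the 9 fits with an array left out; it did not pass with dim values raised to the floor, by normexp or in the authors' table. Without irradiated array 1, Fgg passed, beside 1.66% of all genes in that fit. With the scan pairs as a fixed block, which leaves out the unpaired irradiated array 1, Fgg passed beside 3.82% of all genes, and with the pairs as a random block Fgg, F13a1, Plau and Plaur passed beside 9.45%. Since the genes were chosen with this contrast known, nothing is read from these counts.

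Of the other coagulation and fibrinolysis genes, a list of 47 was measured in full. None passed the limma threshold, beside 0.416% of all genes, 19 had an unadjusted p under 0.05, beside 12.3%, and 34 had a difference above 0, with a median of 0.23 against 0.01 over all genes; the median of the list was 0.10 by normexp and 0.11 in the authors' table. The groups did not overlap for 11 of the 47, all with the irradiated arrays above, beside 3.4% of all genes above and 5.15% in either direction. Their mean level relative to the control mean was 0.18 to 0.46 on the irradiated arrays and −0.07 to 0.04 on the control arrays. Without irradiated array 1, which held the lowest irradiated level of both, Kng1 and Procr passed, both higher, beside 1.66% of all genes in that fit. With any other single array left out, none of the 47 passed. With the scan pairs as a fixed block 7 of the 47 passed, all higher, beside 3.82% of all genes, and as a random block 15 passed, 14 higher and 1 (Itgam) lower, beside 9.45%. The list was chosen with earlier results known, and its counts are a description.

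Among the genes of fibrinolysis and its inhibitors, Serpine2, which inhibits thrombin and urokinase, was 1.56-fold higher without overlap (log2 difference 0.64, standard error 0.16, limma adjusted p = 0.166). Plg, the gene of plasminogen itself, was not well above background on any control array and was so on 1 irradiated array, so no fold is given. Of the 12 genes of fibrinolysis and its inhibitors, 5 had an unadjusted p under 0.05, beside 12.3% of all genes. None passed without a block, and the median difference was 0.29. With the scan pairs as a fixed block 3 of the 12 passed, Serpine2 among them, beside 3.82% of all genes. As a random block 4 passed, again with Serpine2, beside 9.45%.

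Among the 10 anticoagulants, Procr, the gene of the endothelial protein C receptor, which works beside thrombomodulin, was at 10.97, 11.07, 10.52 and 10.85 on the control arrays and at 11.12, 12.05, 11.79, 11.89 and 11.78 on the irradiated arrays. Its groups did not overlap, although irradiated array 1 lay just above control 2, and it was 1.83-fold higher (log2 difference 0.87, standard error 0.19, limma adjusted p = 0.102; 1.02 and limma adjusted p = 0.0152 without irradiated array 1). Tfpi, the inhibitor of the tissue factor pathway, differed by 0.21 (limma adjusted p = 0.756). The median difference of the anticoagulants was 0.41, with 4 at an unadjusted p under 0.05, beside 12.3% of all genes. None passed the threshold in the fit over all 9 arrays without a block. With the scan pairs as a fixed block 2 of the 10 passed, beside 3.82% of all genes. As a random block 4 passed, beside 9.45%, again all higher.

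The 15 coagulation factor genes had a median difference of 0.05, with 5 at an unadjusted p under 0.05, beside 12.3% of all genes. None passed the threshold in the fit over all 9 arrays without a block. With the scan pairs as a fixed block 2 of the 15 passed, beside 3.82% of all genes. As a random block 5 passed, beside 9.45%, again all higher. F7, whose product pairs with tissue factor, was 1.76-fold higher (log2 difference 0.82, standard error 0.25, limma adjusted p = 0.265), with overlap. F10 differed by 0.02 (limma adjusted p = 0.991) and F5 by −0.10 (limma adjusted p = 0.947). Kng1, the gene of kininogen, was named after its values were seen, as the widest difference of the list. It was at 7.87, 8.15, 7.31 and 7.11 on the control arrays and at 8.29, 10.18, 11.90, 12.81 and 13.02 on the irradiated arrays, a log2 difference of 3.63 (standard error 0.87, limma adjusted p = 0.145). Without irradiated array 1 the difference of Kng1 was 4.37 (standard error 0.57, limma adjusted p = 0.0152), and within the scan pairs it was 2.31 to 5.92. Irradiated array 1 of Kng1 lay just above control 2 and the other irradiated arrays well above all control arrays.

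Of the 8 receptors of thrombin and fibrin, F2r, the main thrombin receptor gene, was 1.29-fold higher without overlap (log2 difference 0.36, standard error 0.14, limma adjusted p = 0.392). The median of the receptors was 0.19, with 5 at an unadjusted p under 0.05, beside 12.3% of all genes. None passed the threshold without a block or with the scan pairs as a fixed block. As a random block 1 passed as higher and 1 as lower, beside 9.45% of all genes. Vwf, the gene of von Willebrand factor, differed by −0.24 (limma adjusted p = 0.617).

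**Figure D4:**
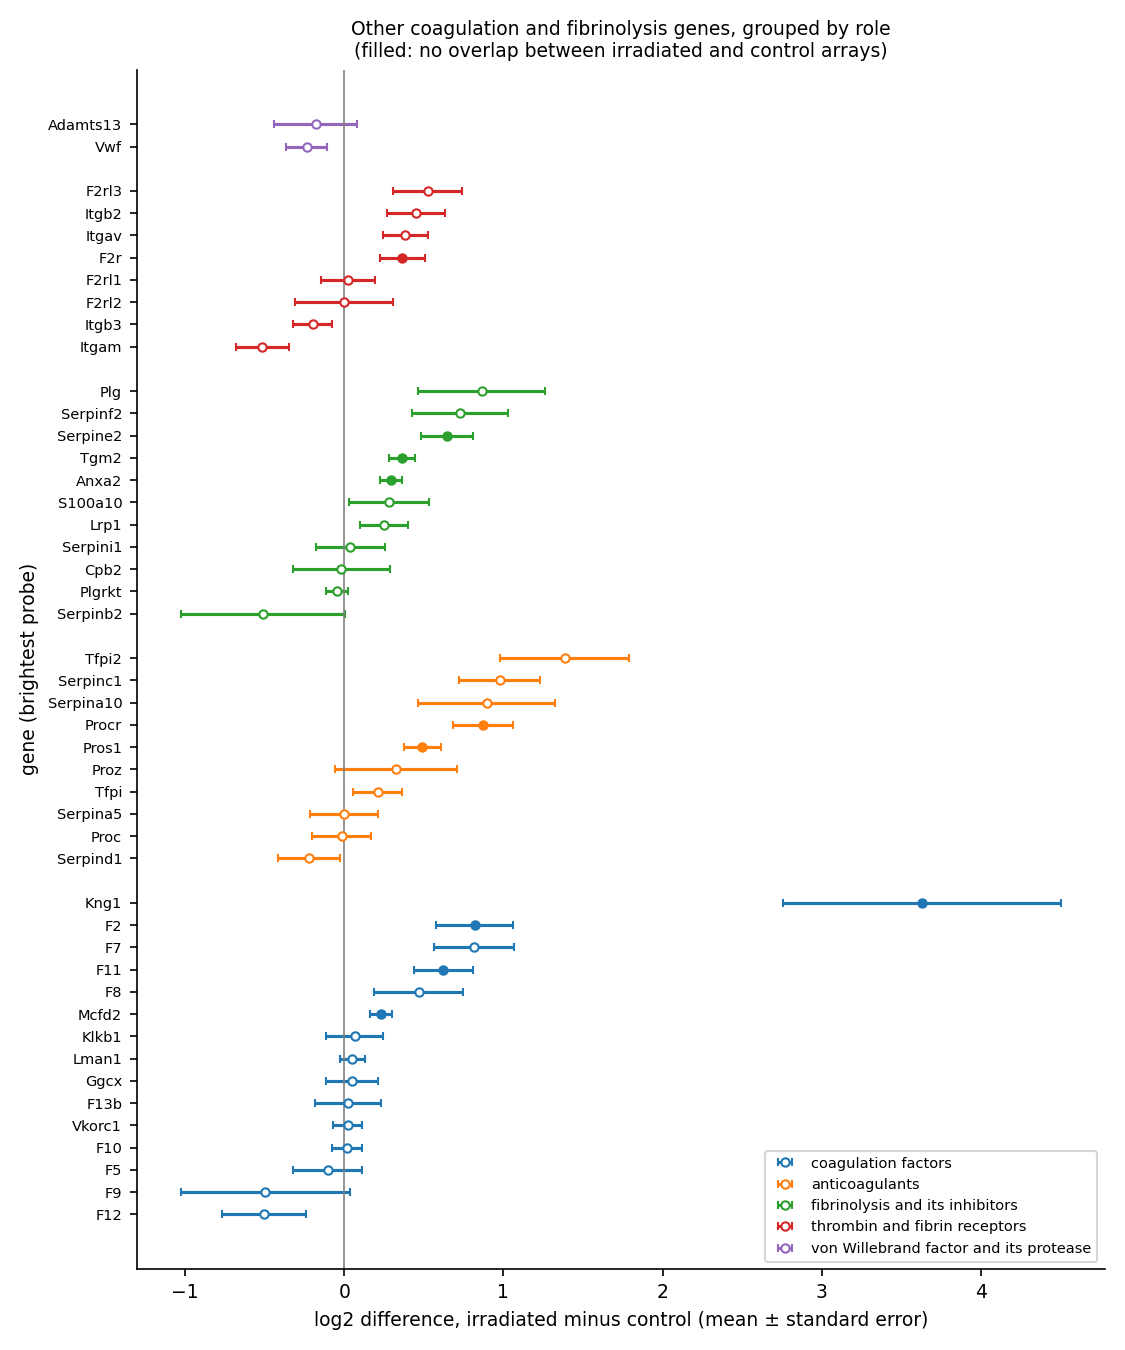
Log2 difference, irradiated minus control (x axis, points with bars of 1 standard error), for 46 of the 47 other genes of coagulation and fibrinolysis (y axis), coloured by role; filled points mark genes whose irradiated and control arrays do not overlap. All 10 filled points lie above 0, with Kng1 farthest out at 3.63 and Procr at 0.87.

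The genes whose pattern over the 9 arrays was most like that of each member were sought among 15218 genes well above background on every array. The highest Pearson r was 0.979 for Fgg with Tmc5, 0.946 for Fga with Rpain, 0.910 for Fgb with Cxcl15 and 0.909 for F3 with Serpini1. It was 0.941 for F13a1 with Dgka, 0.963 for Thbd with Gm8884, 0.989 for Plat with Slc31a2, 0.966 for Plau with Rras2 and 0.978 for Plaur with Wnt5b. For the brighter probe of Fga the next genes were Meis3 at 0.930, Wfdc13 at 0.928, Zswim1 at 0.923 and Adgrg1 at 0.919. The values share the same 9 arrays and their spread in background, were picked as the highest of many, and are a description. For Fgb, which was near the background, the likeness is that of noise-level values.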

How the data were processed

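The authors extracted spot values with Agilent Feature Extraction software (version not given in the sources used here) and deposited them per array as intensity values without normalization between arrays, with marks for spots well above background. They also deposited a table of intensity values after quantile normalization, which was used as an alternative; its spots were matched by position (rank correlation across spots of 1 on each array).

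From the scanner files, processed signals of gene spots were log2 transformed, quantile normalized and averaged per probe. A probe was kept if its signal exceeded 1.4 times the local background on 4 or more of the 9 arrays, which held for 39303 of 39429 probes. The RefSeq table of GRCm38.p6 named 26049 probes for names, gene order and promoters only. On 1 or more arrays, 88 kept probes lacked a value. Groups were compared with limma 3.58.1 in R 4.3.3 (lmFit, eBayes with an intensity trend, Benjamini-Hochberg adjustment over all probes kept, adjusted p under 0.05), without covariates, and standard errors are from that fit. The script was tested on simulated data. The number of arrays limits the precision, and no count depth exists for arrays.

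The members, the gene lists, the motifs and the tests were chosen with earlier results of these data known. Genes were named by rule: the members, preselected pathway and acute phase genes, list genes past the threshold, for each member the gene most like it over the arrays, and for Fga the 5 most like it. Kng1, Itgam and the hepatocyte markers Alb and C9 were named after their values were seen. Marker lists of hepatocytes, platelets, endothelium, macrophages, neutrophils, epithelium, mesothelium, cardiac and skeletal muscle were measured; the lists not described beside a result had a median log2 difference of −0.52 (10 neutrophil genes), 0.00 (12 epithelial genes) and −0.14 (5 mesothelial genes). Not found were Cd68, Rtkn2 and Scgb3a2. The values of 1 gene of the pathway list are not reported here, and the gene stays in the counts.

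The alternatives comprised normexp correction of median signals (offset 50), scaling to the 75th percentile, the background filter on all 9 arrays or none, the authors' table, a floor for dim values, leaving out arrays, a replicate block, scan pairs as a fixed or random block, no intensity trend, array weights, other probes, and thresholds of 0.01 and 0.1. Dose, region and time were not analysed here.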

Additional observations from a re-analysis of the deposited data

Results flagged for a closer look

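Of 56 groups of 4 or 5 arrays examined for a value far from the others (each probe of the 9 genes and each gene list, by group), 5 held one (8.93%). Independent groups would give about 5% (2.8 groups) by chance. These groups share the same arrays and some genes, so that figure is not a valid benchmark and nothing is read from it. The mean level of the interleukin 6 and acute phase list, relative to the control mean, was lowest on irradiated array 1, at 0.37 against 1.39 to 1.61 on the other irradiated arrays. The hepatocyte list was highest on irradiated array 2, at 0.87 against −0.17 to 0.06. The platelet list was highest among the control arrays on control array 3, at 0.26 against −0.11 to −0.06. The cardiac muscle list was lowest on irradiated array 1, at −5.97 against −0.46 to 0.40, and the skeletal muscle list was highest among the control arrays on control array 3, at 4.61 against −1.995 to −1.23. Neither group of Fgg held such a value by this measure.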

How the results depend on the processing

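Among the values of the 9 genes under the alternatives, the sign was kept in 191 of 200; the 9 exceptions were Fgb (5) and F3 (4), both close to 0. Fgg lay between 2.23 and 4.00, F13a1 between −0.55 and −0.27, Plau between 0.53 and 1.08, Plaur between 0.42 and 0.62, Thbd between −0.22 and −0.08, Plat between 0.021 and 0.50, and Fga between 0.25 and 1.29 for its brighter probe and 1.08 and 3.88 for the dimmer one. The mean of both Fga probes gave 2.06.

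Of the 9 genes, 0 passed the threshold, and 0 to 1 with an array left out (Fgg without irradiated 1); 1 passed without both control 3 and irradiated 1, 1 with the scan pair block, 4 with scan pairs as a random block (F13a1, Fgg, Plau and Plaur) and 1 at an adjusted p under 0.1. Of the 47 other genes, 0 passed, and 0 to 2 with an array left out; 2 passed without both arrays, 7 with the scan pair block and 15 with the random block (14 higher and 1 lower). Their median difference of 0.23 was 0.18 to 0.27 with an array left out, 0.10 by normexp and 0.11 in the authors' table.

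Over all probes, 131 passed. Filtering on all 9 arrays gave 197, and the count was 45 in the authors' table, 1099 with the scan pair block, 2899 with the random block, 44 without the trend, 5 at 0.01 and 352 at 0.1. It was 5 to 476 with an array left out: 46, 14, 5 and 8 without control 1 to 4, and 476, 14, 6, 18 and 23 without irradiated 1 to 5. The cause was not tested.

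The replicate numbers did not pair the samples: same-numbered arrays had correlations of deviations of 0.062, −0.017, −0.049 and −0.167. The replicate block over arrays 1 to 4 of each group left 1 probe past the threshold, 0 of the 9 genes and 0 of the 47. The scan pairs had correlations of 0.285, 0.201, 0.331 and 0.455. Dim signals limit Fgb and the dimmer Fga probe.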
